A study of Mus musculus with 24 samples.

Results

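The genes described here are 42 mitosis genes, measured in sorted mouse spleen B cells on 24 Affymetrix arrays in 8 groups of 3. They were chosen by name, as genes of the mitotic kinases, the spindle checkpoint, the kinetochore, the kinesin motors, the spindle and cytokinesis, chromosome structure and anaphase, and each was represented by the probe set with the highest mean over the 24 arrays. All 42 had a probe set, among 18193 genes with one, and all 42 passed the filter on dim values, among 11208 genes tested. The cells came from female C57BL/6 mice that were 8 to 10 weeks old, an age that for immunized animals was the age at immunization. Plasma cells of day 7 (B220+ IgG1low CD138+ Igλ+), germinal center B cells of day 40 and of day 7 (B220+ IgG1+ CD38dull PNA+) and memory B cells (B220+ IgG1+ CD38+ PNA-) of the same 2 days were sorted after immunization with a carrier protein in alum that bore the hapten NP, and all of them bound the related hapten NIP. Marginal zone B cells (B220+ AA4.1- CD21high CD23low), follicular B cells stimulated for 6 h with antibody fragments to IgM at 10 µg/ml and antibody to CD40 at 2 µg/ml, and unstimulated follicular B cells (B220+ AA4.1- CD21int CD23+) were the groups not selected for hapten binding. Stimulated marginal zone cells, named in the design text, were not analysed here.

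Mitosis is driven by cyclin-dependent kinase 1 with its B-type cyclins, and by the Polo and Aurora kinases, which build the spindle and attach chromosomes to it. The spindle checkpoint holds the cell until every kinetochore is attached. Cdc20 then activates the anaphase-promoting complex, which works with the ubiquitin-conjugating enzyme Ube2c to mark cyclin B and the separase inhibitor for destruction. Most of these genes are transcribed in G2 and M phase and are low in resting cells, and germinal center B cells are known for rapid division whereas naive follicular and memory B cells are known as largely resting.

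Values are log2 signals as deposited, where 1 unit is a 2-fold difference in signal, changes are differences of means of 3 arrays ± SE, and a gene was called when its limma adjusted p was under 0.05 and its change at least 1 in size. Signals ran from a floor of 2.15 to 16.43, and between 36.8% and 43.1% of probe sets of an array lay at the floor. The SE of a gene is pooled over all 8 groups and is therefore the same in every pairwise comparison. Whether samples within a group stem from different animals is not given in the labels, so p-values measure only the spread between these samples, which may be technical. Memory arrays stood apart within their groups, as shown with the values below: replicate 1 of day 7 was the highest of its group in 41 of the 42 genes, and replicate 3 of day 40 was the lowest of its group in 38. The B cell markers Cd79a, Cd79b, Ms4a1 and Blk were above the floor on all arrays, while Cd22 was high in every group but plasma cells (3.81, 3.76 and 3.72) and Pax5 lay at the floor in plasma cells. Against follicular cells, 5 of 6 B cell markers fell in plasma cells (median change -4.02) and 5 of 6 in stimulated follicular cells (median change -1.72). Of all tested genes, 22.4% fell in each. On stimulated follicular replicate 1, 5 of the 6 were above the floor. Sdc1, which encodes the plasma cell sort marker CD138, read 14.86, 14.79 and 14.90 in plasma cells, and Cd38 was not analysed here.

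**Figure D1:**
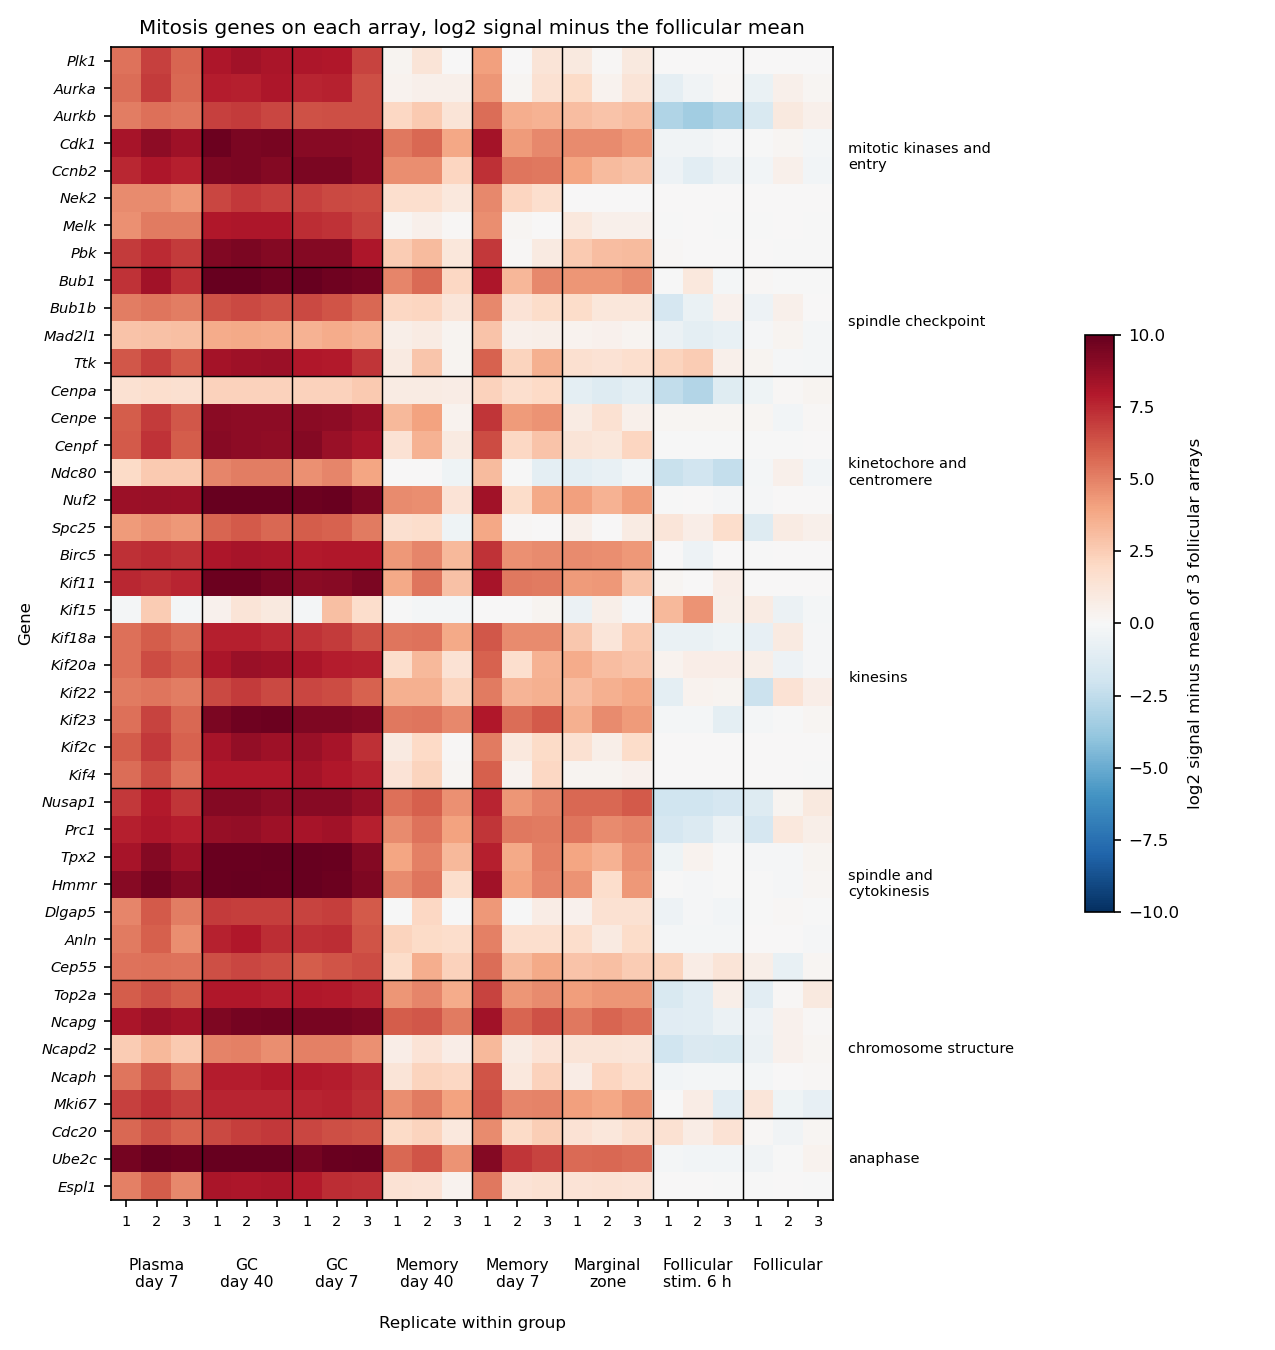
The 42 mitosis genes (rows, by role) on each of the 24 arrays (columns, by group and replicate), as log2 signal minus the mean of the 3 follicular arrays; red is above that mean and blue below it. Plasma and germinal center arrays are red in nearly all rows, stimulated and unstimulated follicular arrays are pale, and the first day 7 memory array is redder than the other two.

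Germinal center B cells carried far higher signals of the mitosis genes than follicular cells. Against follicular cells, 41 of the 42 genes rose at day 40 and 41 rose at day 7, and none fell at either day. The median change was 8.08 at day 40 and 7.73 at day 7, whereas the median over all tested genes ran from -0.053 to 0.015 over the 12 pairwise comparisons. Of all tested genes, 16.8% rose and 15.7% fell at day 40, and 14.4% rose and 16.6% fell at day 7. These comparisons share the follicular arrays. In 41 genes all germinal center arrays lay above all follicular arrays, at each of the 2 days, as did 32.8% of all tested genes at day 40 and 28.1% at day 7. The arrays measure bulk RNA, so fewer dividing cells and less RNA of these genes per cell cannot be told apart.

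The kinases that start mitosis were among the genes that rose. Cdk1, the kinase that triggers entry into mitosis, read 13.42, 12.98 and 13.07 in germinal center cells of day 40 and 12.71, 12.67 and 12.62 in those of day 7, against 3.50, 3.81 and 3.42 in follicular cells. Its partner cyclin Ccnb2 read 12.61, 12.63 and 12.45 at day 40 and 12.67, 12.70 and 12.25 at day 7, against 2.98, 3.78 and 3.0 in follicular cells. For both genes the germinal center arrays were close together and far above the follicular arrays, and the changes at day 7 were 9.09 ± 0.67 for Cdk1 (limma adjusted p = 3e-09) and 9.29 ± 0.56 for Ccnb2 (limma adjusted p = 1.97e-10). Plk1, the Polo kinase, read 10.35, 10.63 and 10.44 at day 40 and 10.30, 10.25 and 9.0 at day 7, against 2.25 on each array in follicular cells, where it lay at the floor of its probe set. Its change at day 7, 7.60 ± 0.68, is therefore a lower bound. Aurka, the Aurora kinase of the spindle poles, read 11.40, 11.33 and 11.64 at day 40 and 11.18, 11.22 and 10.01 at day 7, against 2.87, 4.01 and 3.72 in follicular cells. Aurkb, the kinase of the chromosomal passenger complex, read 12.64, 12.85 and 12.51 at day 40 and 12.19, 12.30 and 12.24 at day 7, against 4.34, 6.78 and 6.37 in follicular cells. The follicular values of Aurkb spread over more than 2 units, but none came near the germinal center values. Pbk, a kinase of dividing cells, read 11.40, 11.60 and 11.36 at day 40 and 11.34, 11.31 and 10.27 at day 7, against 2.18, 2.15 and 2.15 in follicular cells, again at the floor. Nek2, a kinase of centrosome separation, and Melk changed at day 7 by 6.68 ± 0.48 and 7.11 ± 0.73, both lower bounds.

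Genes of the checkpoint and the kinetochore rose in both germinal center groups, over a wide range of sizes. The checkpoint kinase Bub1 (9.77 ± 0.88 at day 7, a lower bound) and Nuf2, a subunit of the Ndc80 complex that binds microtubules (9.72 ± 1.07, a lower bound), were among the 5 largest changes at day 7. Bub1b, the checkpoint protein BubR1, read 12.89, 13.09 and 12.90 at day 40 and 13.12, 12.76 and 12.26 at day 7, against 5.97, 7.0 and 6.53 in follicular cells. Mad2l1, the checkpoint protein that holds back Cdc20, read 12.66, 12.73 and 12.66 at day 40 and 12.42, 12.67 and 12.45 at day 7, against 8.89, 9.22 and 8.81 in follicular cells. Mad2l1 was thus well above the floor in follicular cells, and its change of 3.54 ± 0.38 at day 7 was one of the smallest called. Cenpa, the histone H3 variant of centromeres, had the smallest called change, 2.40 ± 0.29 at day 7 (limma adjusted p = 1.5e-06), with 12.42, 12.40 and 12.42 at day 40 and 12.39, 12.42 and 12.70 at day 7, against 9.70, 10.26 and 10.36 in follicular cells. Cenpe, the kinetochore motor, read 12.42, 12.32 and 12.33 at day 40 and 12.40, 12.33 and 12.02 at day 7, against 3.60, 3.11 and 3.52 in follicular cells. Ndc80 itself read 10.73, 10.98 and 10.95 at day 40 and 10.41, 10.77 and 9.79 at day 7, against 5.65, 6.32 and 5.58 in follicular cells. Birc5, the passenger complex protein survivin, read 14.30, 14.40 and 14.35 at day 40 and 14.11, 14.18 and 14.17 at day 7, against 6.13, 6.22 and 6.22 in follicular cells. None of these genes overlapped between germinal center and follicular arrays.

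Among the motors, spindle proteins and chromosome proteins, 7 of 8 kinesins and all 12 genes of the other two groups rose at day 7, and likewise at day 40. Kif11, the motor that pushes spindle poles apart, read 13.05, 13.02 and 12.76 in germinal center cells of day 40 and 12.24, 12.35 and 12.65 in those of day 7, against 3.23 on each array in follicular cells. Kif23, a motor of the central spindle needed for cytokinesis, read 12.76, 13.05 and 13.12 at day 40 and 12.64, 12.67 and 12.54 at day 7, against 3.13, 3.32 and 3.52 in follicular cells. The exception was Kif15, a motor that acts beside Kif11, with 1 dim probe set: it read 3.15, 4.06 and 3.74 at day 40 and 2.56, 5.77 and 4.53 at day 7, against 3.54, 2.15 and 2.54 in follicular cells. Its groups overlapped at both days, its change of 1.54 ± 0.87 was not called (limma adjusted p = 0.155), and at day 40 the change was 0.91 ± 0.87 (limma adjusted p = 0.427). Tpx2, which activates Aurora A on the spindle, read 12.61, 12.55 and 12.77 at day 40 and 12.64, 12.58 and 11.86 at day 7, against 2.54, 2.54 and 3.0 in follicular cells. Hmmr, a spindle protein and hyaluronan receptor, read 12.19, 12.33 and 12.19 at day 40 and 12.27, 12.13 and 11.65 at day 7, against 2.28, 2.21 and 2.50 in follicular cells, a change of 9.69 ± 0.93 at day 7. Tpx2 and Hmmr were likewise among the 5 largest. Prc1, which bundles the microtubules of the central spindle, read 13.05, 13.16 and 12.82 at day 40 and 12.65, 12.75 and 12.15 at day 7, against 2.70, 5.45 and 4.96 in follicular cells.

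The proliferation marker Mki67, which coats mitotic chromosomes, read 14.83, 14.85 and 14.86 in germinal center cells of day 40 and 14.88, 14.90 and 14.63 in those of day 7, against 8.47, 6.84 and 6.42 in follicular cells. Top2a, the topoisomerase that untangles sister chromatids, read 14.16, 14.16 and 14.04 at day 40 and 14.20, 14.15 and 13.84 at day 7, against 5.09, 6.33 and 7.13 in follicular cells. Ncapg, a condensin subunit, read 13.89, 14.08 and 14.14 at day 40 and 14.02, 13.99 and 13.84 at day 7, against 4.05, 4.92 and 4.61 in follicular cells. All 3 genes were clearly above the floor in follicular cells and still changed at day 7 by 7.56, 7.88 and 9.42. Of the anaphase genes, Ube2c changed most of all 42, by 10.39 ± 0.45 at day 40 and 9.83 ± 0.45 at day 7 (limma adjusted p = 5.44e-12), with 13.70, 13.49 and 13.52 at day 40 and 12.74, 13.04 and 13.25 at day 7, against 2.84, 3.17 and 3.52 in follicular cells. Cdc20 read 12.24, 12.53 and 12.75 at day 40 and 12.29, 12.06 and 11.93 at day 7, against 5.76, 5.33 and 5.84 in follicular cells. Espl1, the protease separase, read 10.30, 10.23 and 10.30 at day 40 and 10.08, 9.54 and 9.46 at day 7, against 2.15, 2.21 and 2.15 in follicular cells. Follicular Espl1 lay at the floor, as did 11 of the 42 genes in follicular cells, so that these 11 changes are lower bounds.

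Germinal center cells of day 40 were also set against those of day 7. No gene of the 42 was called higher or lower by limma, where 3.58% of all tested genes were higher and 2.36% lower, and the lowest adjusted p of the 42 was 0.43, with 0 genes at an unadjusted p under 0.05. The median change was 0.31, with 40 genes above 0 and 2 below it. Melk had the largest change, 0.94 ± 0.73, with 10.20, 10.23 and 10.22 in germinal center cells of day 40, against 9.53, 9.41 and 8.89 in those of day 7. In 15 genes all day 40 arrays lay above all day 7 arrays, as in 15.9% of all tested genes, and replicate 3 of day 7 was the lowest of its group in 34 genes. The myeloid marker sum was 66.1 on day 40 replicate 1 and 33.2 and 31.9 on replicates 2 and 3, against 31.9 to 47.3 at day 7, while the median of the 42 genes above the follicular mean was 8.07, 8.06 and 8.12 on the 3 day 40 arrays.

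Promoter sequences were examined because the genes rose together. The RefSeq table (GRCm38.p6) held 39 promoters for 37 of the 42 genes, each with 250 bases before and 50 bases after the start. Aurkb, Pbk, Kif20a, Tpx2 and Dlgap5 had no entry. The motifs searched on both strands were TTTGAA and TTCGAA, forms of the cell cycle genes homology region through which the DREAM and MMB-FOXM1 complexes act on late cell cycle genes, and CCAAT, the NF-Y box that often lies beside it. TTTGAA or TTCGAA stood in 30 of 39 promoters (76.9%), and in 19.2% of 32851 promoters of the same length. CCAAT stood in 26 of 39 (66.7%), and in 37.4% of all promoters. Both kinds stood together in 24 of 39 (61.5%), and in 7.52% of all promoters, and no match of one kind overlapped a match of the other in the 39 promoters. In 27 of the 39 a TTTGAA or TTCGAA began within 50 bases of the start. The share of all promoters with a match in that window was not counted. These are matches of letters and were not tested as sites. The 5 promoters printed here are those of Ccnb2, Cdc20, Ube2c and Kif23, which have both kinds of match and rose in both germinal center groups, and that of Nuf2, which rose as much with neither. Capitals mark TTTGAA and CCAAT or their reverse complements TTCAAA and ATTGG, and each run is 5′ to 3′ on the strand of the gene.
Ccnb2 promoter (GRCm38.p6, chr9:70421505-70421804, minus strand): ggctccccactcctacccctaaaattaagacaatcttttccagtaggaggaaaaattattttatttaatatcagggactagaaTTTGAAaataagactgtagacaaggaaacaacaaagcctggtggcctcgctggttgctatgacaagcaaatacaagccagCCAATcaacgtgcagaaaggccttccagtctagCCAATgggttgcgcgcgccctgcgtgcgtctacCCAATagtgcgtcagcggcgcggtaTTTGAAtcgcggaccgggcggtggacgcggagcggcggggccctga
Cdc20 promoter (GRCm38.p6, chr4:118437294-118437593, minus strand): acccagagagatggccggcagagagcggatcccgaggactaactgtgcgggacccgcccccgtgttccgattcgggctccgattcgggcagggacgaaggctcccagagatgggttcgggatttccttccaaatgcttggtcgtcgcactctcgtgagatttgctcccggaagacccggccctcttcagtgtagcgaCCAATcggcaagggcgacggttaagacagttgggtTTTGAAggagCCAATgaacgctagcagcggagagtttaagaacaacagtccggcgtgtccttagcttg
Ube2c promoter (GRCm38.p6, chr2:164769679-164769978, plus strand): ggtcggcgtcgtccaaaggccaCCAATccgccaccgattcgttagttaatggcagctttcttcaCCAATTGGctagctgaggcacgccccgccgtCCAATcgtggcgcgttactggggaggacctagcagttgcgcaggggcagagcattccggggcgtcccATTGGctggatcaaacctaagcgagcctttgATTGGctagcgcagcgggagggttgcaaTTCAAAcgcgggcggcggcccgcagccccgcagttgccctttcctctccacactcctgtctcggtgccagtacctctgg
Kif23 promoter (GRCm38.p6, chr9:61946750-61947049, minus strand): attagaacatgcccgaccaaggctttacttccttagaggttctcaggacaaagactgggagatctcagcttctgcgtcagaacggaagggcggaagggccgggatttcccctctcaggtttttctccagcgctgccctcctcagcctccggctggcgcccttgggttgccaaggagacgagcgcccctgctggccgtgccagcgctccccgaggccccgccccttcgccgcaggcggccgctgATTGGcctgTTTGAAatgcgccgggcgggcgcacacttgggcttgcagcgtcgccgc
Nuf2 promoter (GRCm38.p6, chr1:169531415-169531714, minus strand): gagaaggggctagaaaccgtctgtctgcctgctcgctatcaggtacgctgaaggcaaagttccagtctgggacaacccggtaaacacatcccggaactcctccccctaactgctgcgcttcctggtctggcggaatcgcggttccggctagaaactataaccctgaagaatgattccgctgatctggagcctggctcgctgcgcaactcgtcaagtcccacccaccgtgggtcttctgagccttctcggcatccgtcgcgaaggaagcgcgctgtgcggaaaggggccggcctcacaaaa
The TTTGAA of Ccnb2 nearest its start began 4 bases past the start, with CCAAT at 87, 54 and 21 bases before it. In Cdc20 the match began 18 bases before the start, with CCAAT on either side of it. The reverse complement in Ube2c began 29 bases before the start, behind 6 CCAAT matches, of which 2 on opposite strands overlap each other. Kif23 had 1 match of each kind beside the start.

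The comparison of day 7 memory B cells with follicular cells addresses what sets hapten-binding memory cells apart from naive ones. Of the 42 genes, 35 rose and 0 fell, with a median change of 3.86, whereas 9.18% of all tested genes rose and 9.21% fell. The largest rises were those of Ube2c (7.71 ± 0.45, limma adjusted p = 3.59e-10), Ncapg (6.85 ± 0.44), Kif23 (6.58 ± 0.45), Kif11 (6.25 ± 0.64, a lower bound) and Ccnb2 (5.99 ± 0.56). By role, 5 of 8 kinase and entry genes, 4 of 4 checkpoint genes, 5 of 7 kinetochore genes, 7 of 8 kinesins, 6 of 7 spindle and cytokinesis genes, 5 of 5 chromosome structure genes and 3 of 3 anaphase genes rose. Kif15 (0.11 ± 0.87), Ndc80 (0.71 ± 0.65), Spc25 (1.33 ± 0.78), Melk (1.60 ± 0.73), Dlgap5 (1.67 ± 0.77), Plk1 (1.80 ± 0.68, limma adjusted p = 0.0504) and Pbk (2.69 ± 1.09) were not called. With only the 2 compared groups in the fit, 21 genes were called. Without replicate 1 of day 7, 32 were called, with a median change of 2.68, and Aurka, Mad2l1 and Kif4 were no longer among them.

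The 3 day 7 memory arrays differed widely. Relative to the mean of replicates 2 and 3, replicate 1 was at least 2 units higher in 35 of the 42 genes (83.3%), against 2.92% of all tested genes, and the median difference was 3.03, against 0 over all tested genes. It lay above every follicular array in 41 genes, and replicates 2 and 3 did so in 37 and 38. It still lay below every day 7 germinal center array in 40 genes, and replicates 2 and 3 did so in 41 each. Shares of all tested genes were not counted for these positions of single arrays. The median of the 42 genes above the follicular mean was 5.96 in replicate 1, 2.14 in replicate 2 and 3.47 in replicate 3.

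**Figure D2:**
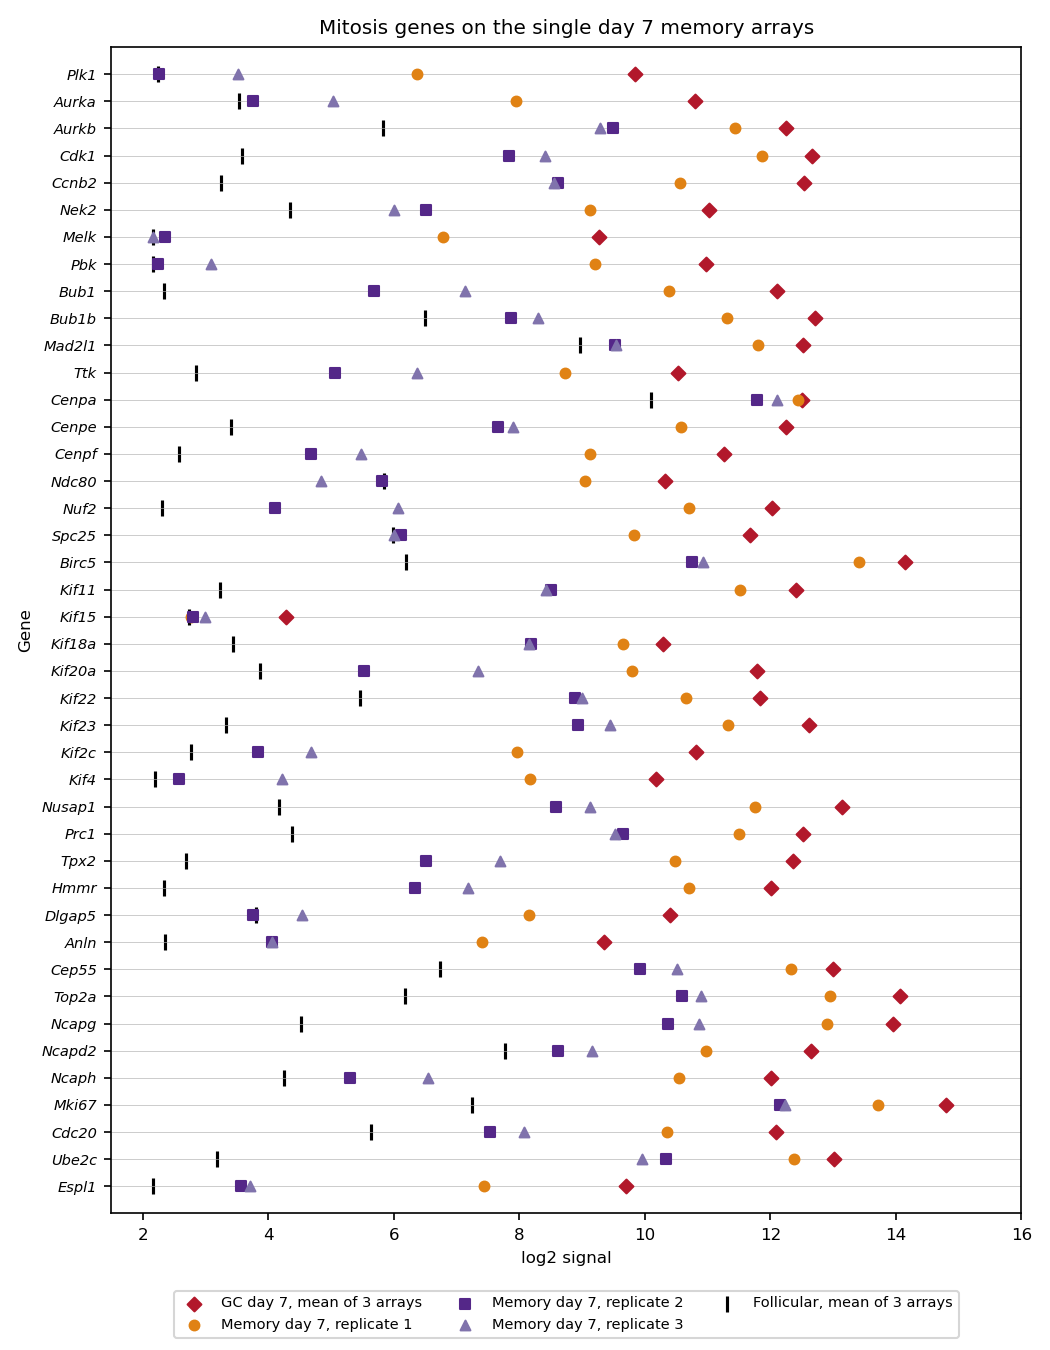
Log2 signal (horizontal axis) of each mitosis gene (vertical axis) on the 3 single day 7 memory arrays, with the mean of the day 7 germinal center arrays and the mean of the follicular arrays. Replicate 1 lies between the other memory arrays and the germinal center mean in nearly all genes, while replicates 2 and 3 lie near the follicular mean in some genes, such as Plk1, Melk and Ndc80, and far above it in others, such as Ube2c and Kif23.

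The genes differed in how far replicates 2 and 3 stood above follicular cells. Ube2c read 12.38, 10.33 and 9.96 on day 7 memory replicates 1, 2 and 3, Ncapg read 12.91, 10.37 and 10.86, and Kif23 read 11.33, 8.93 and 9.45. Kif11 read 11.51, 8.51 and 8.43, Ccnb2 read 10.56, 8.61 and 8.55, and Prc1 read 11.50, 9.66 and 9.53. In these 6 genes even the lowest memory array was over 5 units above the follicular mean. Mki67 read 13.71, 12.15 and 12.23, Top2a read 12.95, 10.59 and 10.90, Birc5 read 13.42, 10.76 and 10.93 and Aurkb read 11.43, 9.50 and 9.29. These 4 were also above every follicular array on each memory array. Cdk1 read 11.86, 7.83 and 8.41, Cenpe read 10.58, 7.66 and 7.90, Tpx2 read 10.48, 6.51 and 7.70 and Hmmr read 10.71, 6.34 and 7.19, with replicates 2 and 3 well short of the germinal center values given above. Cdc20 read 10.36, 7.54 and 8.08, Bub1b read 11.31, 7.86 and 8.30 and Mad2l1 read 11.80, 9.52 and 9.54, where replicates 2 and 3 were less than 3 units above the follicular mean.

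At the low end, Plk1 read 6.37, 2.26 and 3.51 on day 7 memory replicates 1, 2 and 3, so that replicate 2 lay at the floor. Pbk read 9.20, 2.25 and 3.09, Melk read 6.79, 2.36 and 2.17 and Aurka read 7.94, 3.76 and 5.03. In these 4 genes replicate 1 was high and replicate 2 was within 1 unit of the follicular mean. Ndc80 read 9.04, 5.81 and 4.84 in memory cells, against 5.65, 6.32 and 5.58 in follicular cells, with replicate 3 below all follicular arrays and replicate 2 among them. Spc25, an Ndc80 complex subunit, read 9.83, 6.11 and 6.0, against 4.72, 6.78 and 6.46 in follicular cells. Dlgap5, a spindle protein, read 8.16, 3.76 and 4.53, against 3.76, 3.91 and 3.76 in follicular cells. Both lay within the follicular range on replicate 2. Espl1 read 7.43, 3.57 and 3.71, against 2.15, 2.21 and 2.15 in follicular cells, and so stayed above follicular cells on all 3 arrays.

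Germinal center markers were also higher on replicate 1 of day 7 memory. Their summed signal over 8 genes was 89.8 on replicate 1 and as low as 56.0 on the others, while it ran from 97.7 to 98.4 in germinal center cells of day 7 and from 45.4 to 47.7 in follicular cells. All 8 were above the floor on replicate 1. Gcsam read 9.21, 2.26 and 2.40 on replicates 1, 2 and 3, Mef2b 9.31, 2.47 and 2.73, Mybl1 9.95, 3.27 and 3.61 and Rgs13 10.82, 5.47 and 6.15. The DNA replication genes, 39 tested, had a median of 2.10 above the follicular mean on replicate 1, of -0.05 on replicate 2 and of 0.07 on replicate 3. Myeloid markers, 8 genes, summed to 68.7 on replicate 1 and as low as 47.4 on the others, against 27.6 to 31.9 in follicular cells, and S100a8 read 12.36, 2.15 and 3.28. Csf1r lay at the floor on all 3 memory arrays of day 7. Plasma cell markers, 8 genes, summed to 75.1, 78.1 and 76.0 on replicates 1, 2 and 3, against 61.1 to 64.0 in follicular cells and 109 to 111 in plasma cells. Against follicular cells 5 of the 8 rose and 0 fell, where 9.18% of all tested genes rose and 9.21% fell. The 5 and 0 held without replicate 1, and all 8 were above the floor on each memory array. Tnfrsf17, the plasma cell receptor BCMA, read 4.79, 4.89 and 5.13 in day 7 memory cells, against 2.15 on each array in follicular cells and 12.39, 11.51 and 12.62 in plasma cells. The part of other cells in the mitosis signals of these 3 arrays was not tested.

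**Figure D3:**
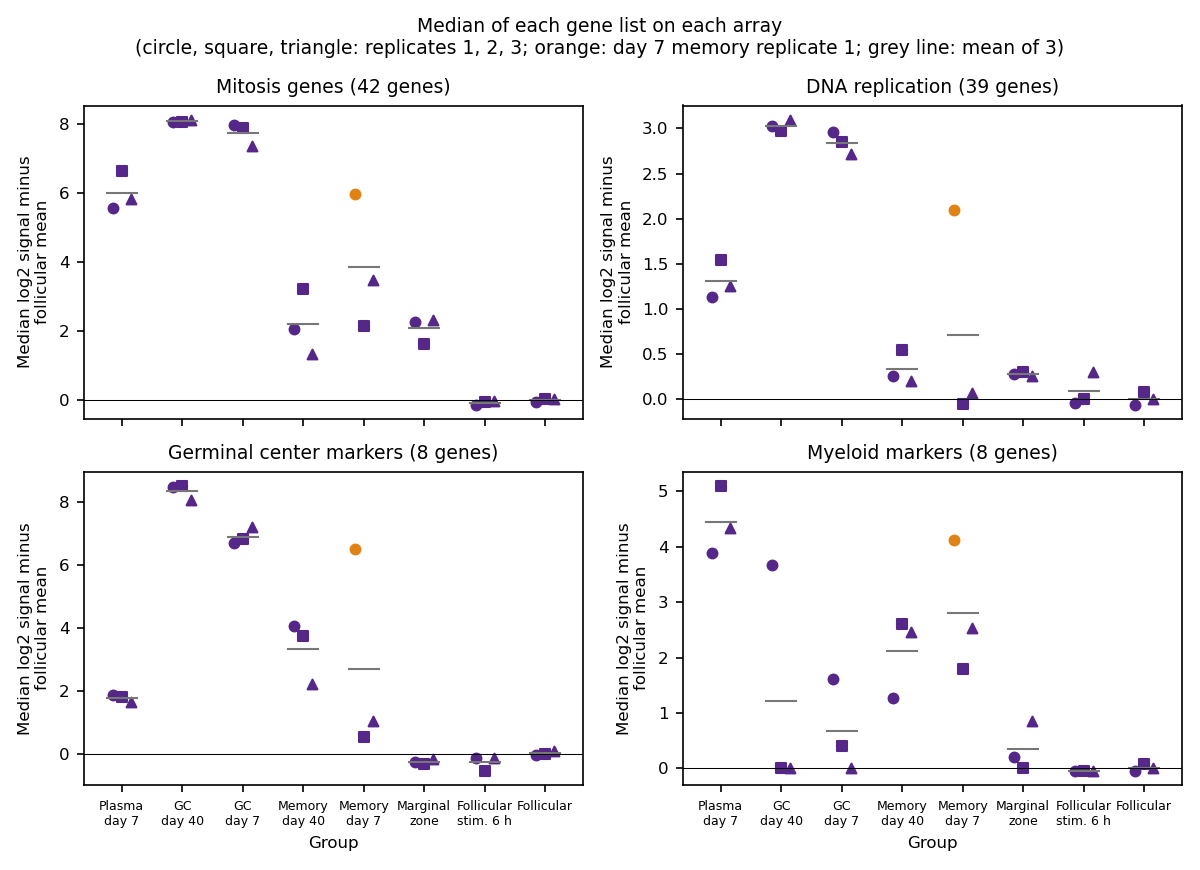
Median log2 signal of 4 gene lists on each array, as the difference from the mean of the 3 follicular arrays, by group (horizontal axis), with a symbol per replicate and a line at the mean of 3. The first day 7 memory array (orange) is above the other two for the mitosis, DNA replication, germinal center and myeloid lists, and the plasma arrays combine mitosis medians of 5.57 to 6.64 with germinal center medians below those of day 40 memory cells.

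In day 40 memory B cells the reference was the same 3 follicular arrays. Of the 42 genes, 24 rose and 0 fell, with a median change of 2.07, whereas 7.23% of all tested genes rose and 6.55% fell. The largest rises were those of Ncapg (5.82 ± 0.44, limma adjusted p = 1.32e-08), Ube2c (5.51 ± 0.45), Nusap1 (5.35 ± 0.62), Kif23 (5.15 ± 0.45) and Cdk1 (4.96 ± 0.67). Ncapg read 10.59, 10.77 and 9.69 in day 40 memory cells, against 4.05, 4.92 and 4.61 in follicular cells. Ube2c read 8.91, 9.44 and 7.70, against 2.84, 3.17 and 3.52 in follicular cells. Nusap1, a spindle microtubule binder, read 9.68, 10.18 and 8.71, against 2.91, 4.47 and 5.15 in follicular cells. In these genes replicate 3 was the lowest memory array and still above every follicular array. Cdk1 read 8.83, 9.35 and 7.42 and Mki67 11.88, 12.44 and 11.25 in day 40 memory cells. Other genes lay close to follicular values. Plk1 read 2.54, 3.51 and 2.25 in memory cells, against 2.25 on each array in follicular cells. Aurka read 3.86, 4.05 and 4.07, against 2.87, 4.01 and 3.72 in follicular cells. Ndc80 read 5.91, 5.91 and 5.42, against 5.65, 6.32 and 5.58 in follicular cells. The groups overlapped in Aurka and Ndc80. In Plk1, memory replicate 3 equalled the follicular value of 2.25, the floor of its probe set, so its change is a lower bound. None of these 3 was called, with changes of 0.52 ± 0.68 for Plk1, 0.46 ± 0.72 for Aurka and -0.10 ± 0.65 for Ndc80. In all, 18 genes were not called, while in 35 genes the 3 memory arrays lay above all follicular arrays, as in 18.5% of all tested genes. Leaving out 1 array at a time gave 17 to 30 called genes, and 17 of the 24 were called each time. The count was 30 without replicate 1 of day 7 memory, which is no part of the comparison but of the pooled variance, and 25 without replicate 3 of day 40. The lowest count, 17, came without replicate 2 of day 40, which was the highest of its group in 33 of the 42 genes. With probe sets whose names mark possible cross-hybridization left out, 14 of 35 remaining genes were called. The germinal center marker sum was 63.5 to 76.9 and the myeloid sum 46.9 to 64.1 in these memory cells, and their part in the result was not tested.

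Day 40 memory cells were compared with day 7 memory cells to ask whether mitosis signals changed with time. All 42 changes were below 0, with a median of -1.29, but 7 genes fell and 35 were not called, where 2.74% of all tested genes rose and 2.28% fell. Those that fell were Cenpe (-2.77 ± 0.72, limma adjusted p = 0.0187), the checkpoint kinase Ttk (-2.57 ± 0.72), Aurkb (-2.25 ± 0.53), Kif11 (-2.24 ± 0.64), Ube2c (-2.21 ± 0.45, limma adjusted p = 0.00407), Ccnb2 (-2.18 ± 0.56) and Cenpa (-1.24 ± 0.29). Cenpe read 6.63, 7.41 and 3.78 at day 40, against 10.58, 7.66 and 7.90 at day 7. Aurkb read 7.88, 8.48 and 7.12 at day 40, against 11.43, 9.50 and 9.29 at day 7. Cenpa read 10.89, 10.91 and 10.81 at day 40, against 12.44, 11.79 and 12.11 at day 7, with the tightest arrays of the 7. The day 40 arrays lay below all day 7 arrays in these 3 genes and overlapped them in Ttk and Kif11. Of the 42 genes, called or not, 7 had all day 40 arrays below all day 7 arrays, as did 13.1% of all tested genes. The count rested on single arrays. Without replicate 1 of day 7, 2 genes fell, 1 rose and the median change was -0.33, and Pbk, with 4.66, 5.34 and 3.31 at day 40 and 9.20, 2.25 and 3.09 at day 7, was the gene that rose, by 1.77. Without replicate 3 of day 40, 2 genes fell. Without replicate 2 of day 7, 22 fell. Only Ube2c and Cenpa fell whichever array was left out, and without both memory arrays that stood apart 2 genes rose and 0 fell. With only the compared groups in the fit, 1 gene fell, and without probe sets of possible cross-hybridization 4 did. Of the 8 plasma cell markers 3 fell and 0 rose, or 4 and 0 without replicate 1 of day 7, with sums of 59.9 to 66.1 at day 40, against 75.1 to 78.1 at day 7. Their part in the result was not tested.

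Germinal center cells were set against memory cells of the same day, 2 hapten-binding populations that differ in CD38 and PNA. At day 40, 41 genes were higher in germinal center cells and 0 lower, with a median change of 5.26, whereas 15.3% of all tested genes were higher and 12.6% lower. At day 7, 40 were higher and 0 lower, with a median change of 3.55, whereas 11.6% of all tested genes were higher and 12.1% lower. The largest changes at day 7 were those of Pbk (6.13 ± 1.09), Plk1 (5.80 ± 0.68, limma adjusted p = 2.3e-06), Melk (5.50 ± 0.73), Kif2c, a microtubule depolymerase (5.33 ± 0.73), and Aurka (5.23 ± 0.72). At day 40 they were those of Melk (7.77 ± 0.73), Plk1 (7.71 ± 0.68), Kif2c (7.50 ± 0.73), Aurka (7.46 ± 0.72) and Ttk (7.16 ± 0.72). Melk read 10.20, 10.23 and 10.22 in germinal center cells of day 40, against 2.35, 2.69 and 2.29 in memory cells of day 40, and Kif2c read 11.02, 11.57 and 11.22, against 3.70, 4.75 and 2.86. Kif15 was not called at either day, and Cenpa was not called at day 7 (0.39 ± 0.29), when it read 12.39, 12.42 and 12.70 in germinal center cells, against 12.44, 11.79 and 12.11 in memory cells. At day 40 all germinal center arrays lay above all memory arrays in 42 genes, as in 31.8% of all tested genes, and at day 7 in 40 genes, as in 24.7%. Without replicate 1 of day 7 memory the count at day 7 was again 40 and the median 4.59. With only the compared groups in the fit it was 23.

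Whether germinal center and memory cells differed more at one day than at the other was tested as an interaction, day 40 minus day 7. It was positive in 41 genes, with a median of 1.56, but only Ube2c (2.77 ± 0.64, limma adjusted p = 0.0129) and Aurkb (2.67 ± 0.75, limma adjusted p = 0.0406) passed the test, both positive, where 2.91% of all tested genes had a positive call and 2.03% a negative one. Ube2c was called whichever array was left out. The call of Aurkb ended without any of 13 of the 24 arrays, replicate 1 of day 7 memory and replicate 3 of day 40 memory among them. The count of positive calls was 7 without replicate 2 of day 7 memory, 5 without replicate 2 of day 40 memory and 4 without replicate 3 of day 7 memory or of the stimulated follicular cells. Of the 8 plasma cell markers 4 had a positive call and 0 a negative one, and their part was not tested. Ttk, with 3.35 ± 1.01 (limma adjusted p = 0.0583), was not called.

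**Figure D4:**
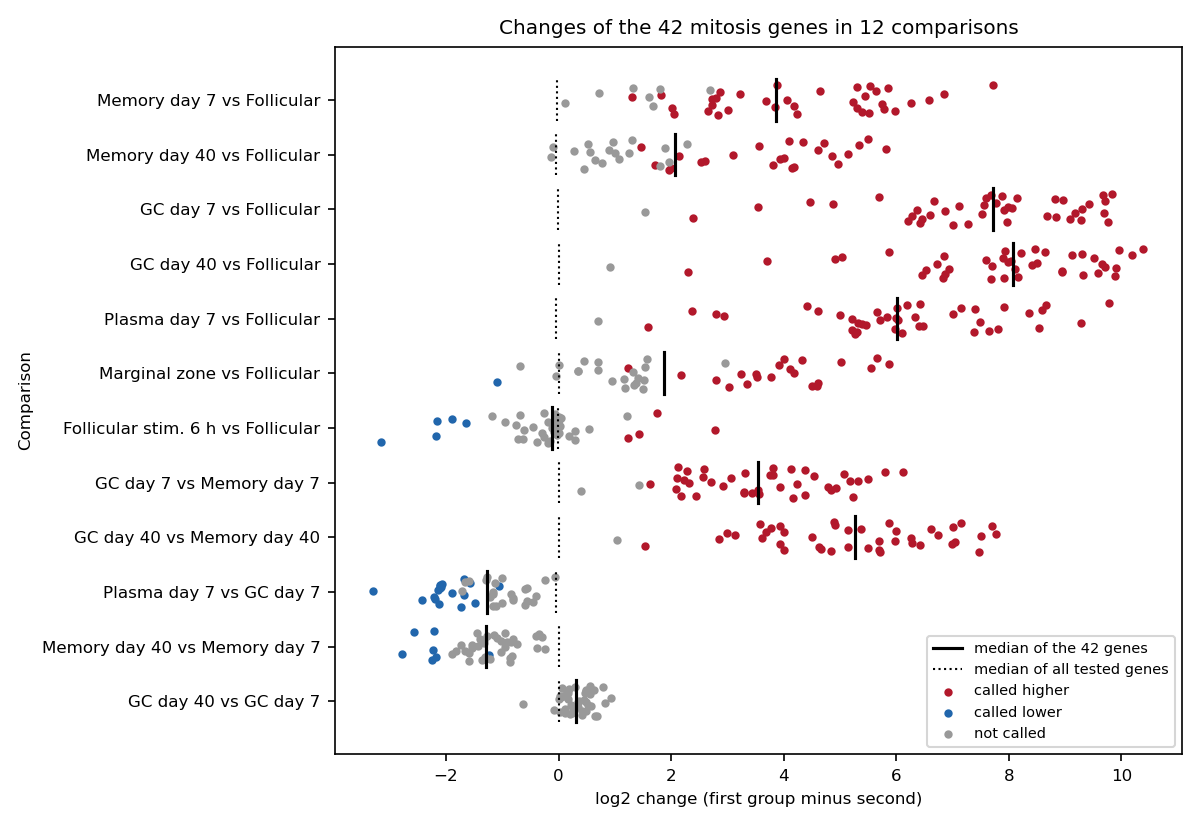
Log2 change (horizontal axis) of each of the 42 mitosis genes, as points, in the 12 pairwise comparisons (vertical axis), with a solid line at their median and a dotted line at the median of all tested genes. The medians run from 8.08 in germinal center cells of day 40 against follicular cells to -1.29 in memory cells of day 40 against day 7.

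Plasma cells of day 7 carried high mitosis signals. Against follicular cells 41 genes rose and 0 fell, with a median change of 6.02, whereas 20.3% of all tested genes rose and 22.4% fell. Ube2c (9.78 ± 0.45), Hmmr (9.29 ± 0.93), Tpx2 (8.66 ± 0.67), Nuf2 (8.58 ± 1.07, a lower bound) and Cdk1 (8.54 ± 0.67, limma adjusted p = 2.23e-09) led. Mki67 read 14.08, 14.54 and 14.11 in plasma cells, against 8.47, 6.84 and 6.42 in follicular cells, and Plk1 read 7.66, 9.07 and 8.05, against 2.25 on each array. Kif15 was not called (0.70 ± 0.87), with 2.54, 5.25 and 2.54 in plasma cells.

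Set against germinal center cells of the same day, plasma cells had lower signals in part of the mitosis genes. Of the 42, 18 fell and 0 rose, while all 42 changes, called or not, were below 0, with a median of -1.28, where 20.1% of all tested genes fell and 18.1% rose. By role, 4 of 5 chromosome structure genes, 4 of 8 kinesins, 3 of 7 kinetochore genes, 3 of 8 kinase and entry genes, 2 of 7 spindle and cytokinesis genes, 1 of 4 checkpoint genes and 1 of 3 anaphase genes fell. Kif23 had the largest change, -3.29 ± 0.45 (limma adjusted p = 5.05e-06), with 8.81, 10.08 and 9.09 in plasma cells, against 12.64, 12.67 and 12.54 in germinal center cells. Cenpe read 9.47, 10.40 and 9.59 in plasma cells, against 12.40, 12.33 and 12.02 in germinal center cells (-2.43 ± 0.72). Espl1 read 7.24, 8.22 and 7.0, against 10.08, 9.54 and 9.46 in germinal center cells (-2.21 ± 0.65). In these 3 genes the plasma arrays lay well below all germinal center arrays. Of the 42 genes, called or not, 34 had all plasma arrays below all germinal center arrays, as did 34% of all tested genes. Cenpf, a kinetochore protein, read 8.71, 9.80 and 8.67, against 11.78, 11.19 and 10.81 in germinal center cells (-2.20 ± 0.79). Kif4, a chromokinesin, read 7.75, 8.70 and 7.62, against 10.49, 10.18 and 9.85 in germinal center cells (-2.15 ± 0.85). Neither overlapped, and plasma replicate 2 was the highest plasma array in both. Ndc80 read 7.75, 8.43 and 8.47, against 10.41, 10.77 and 9.79 in germinal center cells. Top2a read 12.23, 12.66 and 12.24, against 14.20, 14.15 and 13.84 in germinal center cells. The condensin subunit Ncapd2 (-2.08 ± 0.42) and Nek2 (-2.07 ± 0.48) also fell.

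At the other end of the set the values of both cell types lay close together. Ube2c read 12.73, 13.16 and 12.97 in plasma cells, against 12.74, 13.04 and 13.25 in germinal center cells, a change of -0.06 ± 0.45 that was not called (limma adjusted p = 0.96). Prc1 read 12.18, 12.46 and 12.20, against 12.65, 12.75 and 12.15 in germinal center cells (-0.24 ± 0.57). Hmmr read 11.42, 11.94 and 11.49, against 12.27, 12.13 and 11.65 in germinal center cells (-0.40 ± 0.93). In these 3 genes the groups overlapped. Cdc20 read 11.36, 11.98 and 11.55, against 12.29, 12.06 and 11.93 in germinal center cells (-0.46 ± 0.48), and overlapped too. Cdk1 read 11.79, 12.49 and 12.06, against 12.71, 12.67 and 12.62 in germinal center cells (-0.55 ± 0.67), with all plasma arrays lower. Plk1 read 7.66, 9.07 and 8.05, against 10.30, 10.25 and 9.0 in germinal center cells, and missed the threshold at -1.59 ± 0.68 (limma adjusted p = 0.0545). A missed threshold does not show that the levels were alike. Differences between genes in their change were not tested.

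**Figure D5:**
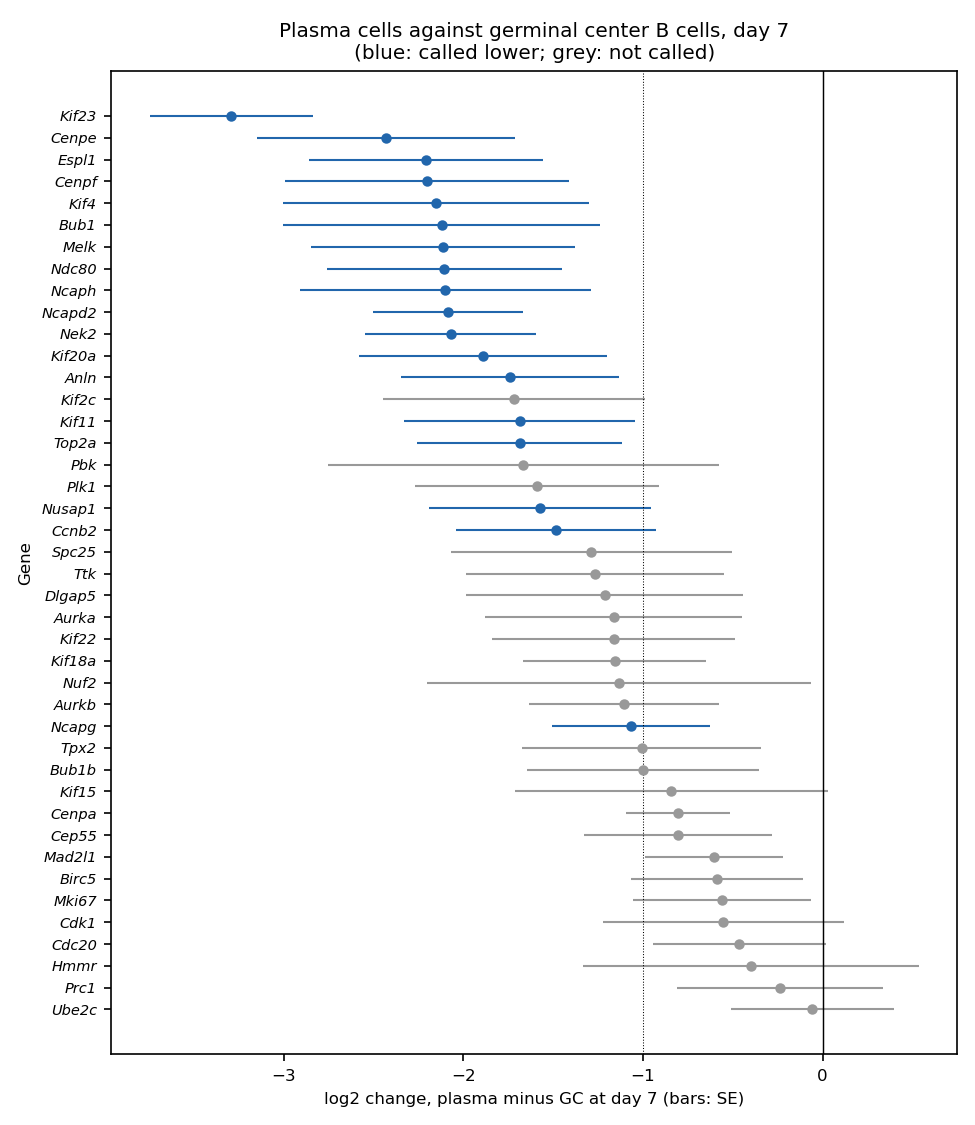
Log2 change of each mitosis gene (vertical axis, from the largest fall down) in plasma cells minus germinal center B cells of day 7 (horizontal axis), with bars of 1 SE; blue genes were called lower and grey genes were not called. Values run from -3.29 for Kif23 to -0.06 for Ube2c.

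The count of 18 depended on single arrays, and 7 genes fell whichever array was left out: Kif23, Cenpe, Espl1, Ndc80, Ncapd2, Nek2 and Top2a. It was 7 without replicate 1 of the germinal center cells or replicate 1 of the plasma cells, 8 without replicate 2 of the germinal center cells or replicate 3 of the plasma cells, and 28 without replicate 1 of day 7 memory. It was 10 without the filter on dim genes and 31 with array weights. Replicate 2 of the plasma cells was the highest of its group in 39 genes, and Nkg7, a gene of cytotoxic lymphocytes, read 2.15, 8.95 and 2.23 on plasma replicates 1, 2 and 3. Myeloid markers summed over 8 genes to 72.0 to 73.9 on the plasma arrays, against 31.9 to 47.3 on the germinal center arrays, with 6 of 8 above the floor on each plasma array. S100a9 read 14.23, 14.31 and 14.07 in plasma cells, against 9.38, 10.03 and 2.15 in germinal center cells, and Itgam lay at the floor in both. No erythroid or platelet marker passed the filter, and of 5 T cell markers tested 3 were higher and 1 lower. Of all tested genes 18.1% were higher and 20.1% lower. The part of other cells in the mitosis signals of these arrays was not tested.

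Marginal zone B cells, a naive population at the edge of the follicle, were set against follicular cells. Of the 42 genes, 21 rose and 1 fell, with a median change of 1.88, whereas 7.21% of all tested genes rose and 3.81% fell. Nusap1 (5.87 ± 0.62, limma adjusted p = 9.44e-07), Ube2c (5.67 ± 0.45), Ncapg (5.54 ± 0.44), Prc1 (5.01 ± 0.57) and Cdk1 (4.60 ± 0.67) rose most. Nusap1 read 9.88, 9.95 and 10.30 in marginal zone cells, against 2.91, 4.47 and 5.15 in follicular cells. Ube2c read 8.85, 8.90 and 8.78, against 2.84, 3.17 and 3.52 in follicular cells. Prc1 read 9.71, 9.13 and 9.30, against 2.70, 5.45 and 4.96 in follicular cells. The lowest marginal zone array was above the highest follicular array in each of them. Mki67 read 11.34, 11.09 and 11.66, against 8.47, 6.84 and 6.42 in follicular cells. Top2a read 10.34, 10.57 and 10.59, against 5.09, 6.33 and 7.13 in follicular cells. Cdk1 read 8.32, 8.27 and 7.95, against 3.50, 3.81 and 3.42 in follicular cells. These 3 did not overlap either. By role, 4 of 5 chromosome structure genes, 5 of 7 spindle and cytokinesis genes and 5 of 8 kinesins rose, with 3 of 8 kinase and entry genes, 2 of 7 kinetochore genes, 1 of 4 checkpoint genes and 1 of 3 anaphase genes. Cenpa fell (-1.09 ± 0.29, limma adjusted p = 0.0118), with 9.12, 8.82 and 9.11 in marginal zone cells, against 9.70, 10.26 and 10.36 in follicular cells. The fall was not called without replicate 3 of the follicular cells or replicate 2 of the marginal zone cells. Plk1 (0.70 ± 0.68), Aurka (1.17 ± 0.72), Kif4 (0.34 ± 0.85), Melk (0.70 ± 0.73) and Nek2 (0.0 ± 0.48) were among the 20 genes not called, and Nek2 read 4.34 on each array in marginal zone cells and 4.34 on each array in follicular cells, the floor of its probe set. All marginal zone arrays lay above all follicular arrays in 35 genes, as in 21.2% of all tested genes. The count of rises was 29 without replicate 1 of day 7 memory and 11 of 35 without probe sets of possible cross-hybridization. Marginal zone cells were not tested against memory cells, but each day 7 memory array can be set beside them. Replicate 1 lay above all marginal zone arrays in 41 genes and below all of them in 0. Replicate 2 lay above in 16 and below in 11, and replicate 3 above in 28 and below in 4. Shares of all tested genes were not counted for these single arrays.

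Follicular cells stimulated for 6 h differed from unstimulated cells in few mitosis genes. Of the 42, 4 rose and 5 fell, with a median change of -0.11, smaller shares than among all tested genes, of which 16.9% rose and 22.4% fell. The genes that rose were Kif15 (2.77 ± 0.87, limma adjusted p = 0.0109), Ttk (1.75 ± 0.72), the abscission protein Cep55 (1.43 ± 0.52) and Cdc20 (1.23 ± 0.48). Kif15 read 5.96, 7.27 and 3.32 in stimulated cells, against 3.54, 2.15 and 2.54 in unstimulated cells, with the third stimulated array inside the unstimulated range. Ttk read 5.08, 5.36 and 3.34, against 3.15, 2.70 and 2.68 in unstimulated cells. Cep55 read 8.97, 7.51 and 8.02, against 7.33, 5.97 and 6.90 in unstimulated cells, and Cdc20 read 7.20, 6.36 and 7.05, against 5.76, 5.33 and 5.84. In these last 3 genes the groups did not overlap. The genes that fell were Aurkb (-3.15 ± 0.53, limma adjusted p = 4.84e-05), Cenpa (-2.18 ± 0.29), Ndc80 (-2.16 ± 0.65), Nusap1 (-1.90 ± 0.62, a fall of at least this size, since the stimulated arrays lay at the floor) and Ncapd2 (-1.65 ± 0.42). Aurkb read 2.83, 2.36 and 2.84 in stimulated cells, against 4.34, 6.78 and 6.37 in unstimulated cells. Cenpa read 7.66, 7.21 and 8.90, against 9.70, 10.26 and 10.36 in unstimulated cells. Ndc80 read 3.63, 3.97 and 3.46, against 5.65, 6.32 and 5.58 in unstimulated cells. Aurkb and Ndc80 were thus low on each stimulated array, while Cenpa spread over more than 1 unit. Nusap1 read 2.19, 2.19 and 2.46, against 2.91, 4.47 and 5.15 in unstimulated cells, and Ncapd2 read 5.79, 6.30 and 6.27, against 7.20, 8.16 and 7.94. All stimulated arrays were below all unstimulated arrays in these 5 genes. That held for 10 of the 42 genes, called or not, and for 33.1% of all tested genes. All stimulated arrays were above all unstimulated arrays in 4 of the 42, and in 25.8% of all tested genes. Cdk1 (-0.27 ± 0.67), Mki67 (-0.11 ± 0.50), Plk1 (0.0 ± 0.68) and Top2a (-0.68 ± 0.57) were not called. Plk1, Nek2, Melk, Pbk, Nuf2, Kif2c, Kif4, Anln and Espl1 lay at the floor on every array of both groups. A fall could not be seen in these genes, which limits the share of falls. The count of rises was 2 without replicate 1 or replicate 3 of the unstimulated cells or replicate 2 of the stimulated cells, and 1 without replicate 2 of the unstimulated or replicate 1 of the stimulated cells. It was 1 without the filter on dim genes, with arrays shifted to the same median, with the mean over probe sets or when the fit held no other group, and 2 with an offset of 16. Averaging over probe sets left 3 falls and array weights gave 8. Called whichever array was left out were 4 of the 9 genes, Aurkb, Cenpa, Ndc80 and Ncapd2, all of which fell. Another probe set of Ncapd2, above the floor on all 24 arrays, gave only -0.24. The other probe set of Aurkb gave -1.52, and those of Cenpa gave -2.15 and -2.30.

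Other mitosis genes were counted as a list of 67, of which 66 were tested. In germinal center against follicular cells 61 rose at day 40 and 58 at day 7, with none lower, led at day 7 by the spindle protein Spag5 (10.0 ± 0.63) and the cohesion protein Cdca5, sororin (9.74 ± 0.83). In plasma against germinal center cells 26 fell and 0 rose, with Psrc1 at -5.51 ± 0.35 and Depdc1b at -4.13 ± 0.32. In memory against follicular cells 15 rose and 1 fell at day 40, and 30 rose and 1 fell at day 7, or 25 and 2 without replicate 1 of day 7. In marginal zone cells 20 rose and 1 fell, and in stimulated follicular cells 6 rose and 7 fell, with Psrc1 at 7.32 ± 0.35 and the phosphatase gene Cdc25b, an activator of Cdk1, at -6.62 ± 0.41. Psrc1, a spindle protein, read 9.81, 9.23 and 9.62 in stimulated cells, against 2.15, 2.40 and 2.15 in unstimulated cells. Shares of all tested genes follow for the same comparisons. In germinal center against follicular cells 16.8% rose at day 40 and 14.4% at day 7. In plasma against germinal center cells 20.1% fell and 18.1% rose. In memory against follicular cells 7.23% rose and 6.55% fell at day 40, and 9.18% rose and 9.21% fell at day 7. In marginal zone cells 7.21% rose and 3.81% fell. In stimulated follicular cells 16.9% rose and 22.4% fell, larger shares than in the list.

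DNA replication genes act in S phase, before mitosis, and 39 of them were tested. In germinal center against follicular cells 37 rose at either day, with the helicase loader Cdc6 at 9.38 ± 1.0 at day 7. In memory against follicular cells 4 rose and 1 fell at day 40, and 9 rose and 1 fell at day 7, or 4 and 5 without replicate 1 of day 7. In marginal zone cells 6 rose and 0 fell. In plasma cells 20 rose and 1 fell against follicular cells, and 24 fell and 0 rose against germinal center cells, with the chromatin assembly gene Chaf1b at -4.66 ± 0.67. Shares of all tested genes follow for the same comparisons. In germinal center against follicular cells 16.8% rose at day 40 and 14.4% at day 7. In memory against follicular cells 7.23% rose and 6.55% fell at day 40, and 9.18% rose and 9.21% fell at day 7. In marginal zone cells 7.21% rose and 3.81% fell. In plasma cells 20.3% rose and 22.4% fell against follicular cells, and 18.1% rose and 20.1% fell against germinal center cells. The median change of the DNA replication genes was 0.40 in memory cells of day 40, 0.62 in those of day 7 and 0.36 in marginal zone cells against follicular cells, where the mitosis genes had 2.07, 3.86 and 1.88. Because the probe sets differ between lists, the sizes were not tested against each other.

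Regulators of G2 and M phase transcription were a list of 22. In germinal center cells of day 7 against follicular cells 9 rose and 1 fell, and the rises included those of E2f8 (9.93 ± 0.66), Mybl2, the MYB protein of the MMB complex (7.89 ± 0.76), E2f7 (7.24 ± 1.01) and E2f1 (6.96 ± 0.58). Mybl2 read 10.42, 10.62 and 10.25 in germinal center cells of day 40 and 10.44, 10.14 and 9.56 in those of day 7, against 2.15, 2.15 and 2.17 in follicular cells. In plasma against germinal center cells 8 fell and 1, Rb1, rose, with E2f5 at -5.61 ± 0.42 and Mybl2 at -3.35 ± 0.76. In stimulated follicular cells 2 rose and 5 fell, with E2f2 at -7.27 ± 0.19. Of all tested genes, 16.9% rose and 22.4% fell in stimulated cells, a share of falls close to that of the list. In germinal center cells of day 7 against follicular cells 14.4% rose and 16.6% fell. In plasma against germinal center cells 20.1% fell and 18.1% rose.

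For 27 of the 42 genes other probe sets were on the array, and 35 such probe sets were above the floor. The sign of their change was that of the chosen probe set in 35 of 35 for germinal center cells of day 7 against follicular cells, in 34 for plasma against germinal center cells, in 31 for memory cells of day 40 against day 7, in 31 for memory cells of day 7 against follicular cells, in 29 for marginal zone cells and in 15 for stimulated follicular cells. No pair changed in opposite directions by more than 1 unit each in these comparisons. Sizes could differ widely. In day 7 memory against follicular cells another probe set gave 0.41 for Bub1 (chosen 5.40), 0.84 for Nusap1 (chosen 5.65) and -0.14 for Ncapd2 (chosen 1.82). The others of Kif11 gave 3.43 and 3.12 (chosen 6.25), and those of Kif23 gave 3.52 and 0.02 (chosen 6.58). Closer were Prc1 at 5.21 (chosen 5.86) and Tpx2 at 5.68 (chosen 5.54). In marginal zone cells another probe set above the floor gave 0.54 for Nusap1 (chosen 5.87) and 0.05 for Bub1 (chosen 4.51). It gave 4.15 for Prc1 (chosen 5.01) and 4.61 for Tpx2 (chosen 4.01). The others of Cenpa gave -3.13 and -2.46 (chosen -1.09). In stimulated cells another probe set gave 3.24 for Kif11 (chosen 0.30) and 2.62 for Top2a (chosen -0.68). Of the genes called there, another gave 0.42 for Ttk (chosen 1.75), 0.09 for Cep55 (chosen 1.43) and 0.09 for Nusap1 (chosen -1.90). For Ncapd2 it gave -0.24 (chosen -1.65) and for Aurkb -1.52 (chosen -3.15). The others of Cdc20 gave 0.01 and 0.0 (chosen 1.23), and those of Cenpa -2.15 and -2.30 (chosen -2.18).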

How the data were processed

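RNA of 24 sorted B cell samples was amplified, labelled with biotin and hybridised to Affymetrix Mouse Genome 430 2.0 arrays. The deposited values are log2 signals per probe set that the authors made with GCRMA, per the submitters' processing notes, with the version not given in the sources used here. GCRMA adjusts for background and normalizes across arrays, so dim probe sets share a floor and their changes are understated. Values were used as deposited, without further scaling. Probe sets were named from GEO's platform annotation, 34958 of 45101 with 1 symbol and 932 with several, which stayed unnamed, and a gene with several probe sets was read from the brightest, by the mean of 24 arrays. Genes above the array's median on at least 3 arrays were tested, which left 11208 of 18193.

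One limma model (limma 3.58.1 in R 4.3.3) with 8 group means was fitted over all 24 arrays, so all groups share the estimate of spread. P-values were adjusted by Benjamini-Hochberg over all tested genes, and a call needed an adjusted p under 0.05 and a log2 change of at least 1 in size. A value counted as at the floor when it was at or below its array's median, or within 0.05 of its probe set's lowest value where at least 3 arrays shared that value, a second criterion set after the values were seen. A change is a bound where all 3 arrays of a group were at the floor. Index members, the largest called changes of a comparison, members not called or called against the rest, and up to 4 genes of other lists were named. The members and lists were chosen with earlier results of these data known. Replicates were grouped from the labels and no 2 arrays held identical values. No pairing was used, since no comparison had every correlation between the deviations of same-numbered replicates over 0.1. In plasma against germinal center cells the correlations were 0.21, 0.33 and 0.07, so shared deviation there is not excluded. The number of arrays limits precision, since arrays carry no read depth. Alternatives were other filters, scalings, offsets, probe set rules, priors, array weights, smaller fits, a replicate block and leaving out each array. The fit was tested on simulated data with known changes. Plots were made in matplotlib 3.10.9 under Python 3.11.15.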

Additional observations from a re-analysis of the deposited data

Results flagged for a closer look

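The germinal center minus memory difference changed between the days for 2 of the 42 mitosis genes (4.76%) by the interaction term of the limma model, where 2.91% of all tested genes had a positive call. For Ube2c the difference at day 40 exceeded that at day 7 by 2.77 ± 0.64 (limma adjusted p = 0.0129). The Ube2c change was 4.89 at day 40 and 2.12 at day 7. For Aurkb the excess was 2.67 ± 0.75 (limma adjusted p = 0.0406), with changes of 4.84 at day 40 and 2.17 at day 7. Most of it lay in the memory groups: Aurkb read 7.88, 8.48 and 7.12 in day 40 memory cells, against 11.43, 9.50 and 9.29 in day 7 memory cells, and Ube2c read 8.91, 9.44 and 7.70, against 12.38, 10.33 and 9.96. The call of Aurkb ended without replicate 1 of day 7 memory and without 12 other arrays, with adjusted p between 0.00827 and 0.0992 over the 24 fits.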

How the results depend on the processing

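Calls of the 42 mitosis genes in germinal center and plasma cells against follicular cells, and in germinal center against memory cells of day 40, stayed within 1.5 times the reported counts under every alternative run, those that left out 1 array included. Without the filter on dim genes the stimulated follicular cells had 1 rise, plasma against germinal center cells 10 falls and the interaction 1 call. With arrays shifted to the same median, stimulated cells had 1 rise and the interaction 1 call, and an offset of 16 gave stimulated cells 2 rises. Averaging all probe sets of a gene gave stimulated cells 1 rise and 3 falls. Without probe sets marked for cross-hybridization, 14 genes rose in day 40 memory and 11 in marginal zone cells, 4 fell in day 40 against day 7 memory, and 1 was higher in germinal center cells of day 40 than of day 7. Array weights gave 8 falls in stimulated cells and 31 in plasma against germinal center cells. With only the compared groups in the fit, 21 genes rose in day 7 memory and 1 in stimulated cells, 23 were higher in germinal center than memory cells of day 7, 1 fell in day 40 against day 7 memory, and 1 interaction was called. With the replicate block the interaction had 1 call, marginal zone cells 20 rises and plasma against germinal center cells 17 falls, and it changed no other count. Leaving out both memory arrays that stood apart, a choice made after seeing the data, gave 30 falls in plasma against germinal center cells, 2 rises and 0 falls in day 40 against day 7 memory, and 1 positive and 1 negative interaction. Leaving out 1 array at a time gave 0 to 1 falls in marginal zone cells, 1 to 4 rises in stimulated cells, 7 to 28 falls in plasma against germinal center cells, 0 to 1 rises and 2 to 22 falls in day 40 against day 7 memory, and 1 to 7 positive interactions. Signs turned for Spc25 in plasma against follicular cells (-0.033) and Top2a in stimulated cells (2.62) without probe sets marked for cross-hybridization, for Pbk in day 40 against day 7 memory without replicate 1 of day 7 (1.77, with -1.71 the lowest value over the arrays left out) and without both memory arrays (2.33), where Nuf2 (1.90) and the interaction of Pbk (-1.85) turned too. The causes were not tested. Signal over background limits the dim genes, of which 11 lay at the floor in follicular cells, and 3 arrays a group limit all comparisons.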

Other observations

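Genes outside the mitosis set that govern entry into and exit from the cycle were counted in the same samples, as a description. Of all tested genes, 14.4% rose and 16.6% fell in germinal center cells of day 7 against follicular cells, 18.1% rose and 20.1% fell in plasma against germinal center cells, and 16.9% rose and 22.4% fell in stimulated follicular cells. In germinal center cells of day 40 against follicular cells 16.8% rose and 15.7% fell. Of 14 genes of the anaphase-promoting complex and its activators, through which Cdc20 and Ube2c act, 4 rose and 0 fell in germinal center cells at day 40 and 4 and 0 at day 7 against follicular cells, and at day 7 they were Ube2s (2.77 ± 0.26), Fzr1 (1.82 ± 0.20), Anapc11 (1.79 ± 0.18) and Anapc7 (1.50 ± 0.58). In plasma against germinal center cells 0 rose and 2 fell, and in stimulated follicular cells none of the 14 was called.

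Of 7 genes, G1 cyclins and kinases together with the transcription factor gene Myc, 4 rose and 2 fell in stimulated against unstimulated follicular cells. Myc changed by 3.58 ± 0.63, Cdk6 by 2.63 ± 0.44, the D-type cyclin Ccnd2 by 2.02 ± 0.31 and Ccnd3 by -2.93 ± 0.33. Ccnd2 read 13.88, 13.45 and 13.70 in plasma cells, against 2.63, 4.28 and 3.10 in germinal center cells of day 7, a change of 10.34 ± 0.31. Ccnd3 changed the other way in that comparison, by -3.29 ± 0.33.

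Of 13 cell cycle inhibitors and quiescence genes tested, 1 rose and 7 fell in stimulated follicular cells, with the inhibitor Cdkn1a at 7.83 ± 0.73 and Cdkn2d at -7.52 ± 0.26. In plasma against germinal center cells 7 rose and 3 fell, and Cdkn1a read 9.27, 8.70 and 8.99 in plasma cells, against 2.89, 3.41 and 2.38 in germinal center cells (6.09 ± 0.73). In day 7 memory against follicular cells 1 rose, Cdkn1a (2.45 ± 0.73), and 0 fell. Of all tested genes 9.18% rose and 9.21% fell there, so this count was no larger than that share.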
